A study of Homo sapiens with 12 samples.

Results

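E2F and DP genes code for the transcription factors that switch on, and off, the genes a cell needs to copy its DNA and divide. The set described here has 10 members, E2F1 to E2F8 with the DP genes TFDP1 and TFDP2. They were chosen by name as a family, with earlier results of these data known, and each was read from its row in the array table, 10 of the 18417 genes tested. Expression was measured on Affymetrix Gene ST arrays in 4 groups of 3 arrays each: HEL cells given ITF2357, untreated HEL cells, UKE1 cells given ITF2357, and untreated UKE1 cells. ITF2357 (givinostat) inhibits histone deacetylases and was given at 250 nM for 6 h, and the untreated cells were cultured for the same 6 h. HEL and UKE1 are established human cell lines labelled as erythroleukemia, and all 4 groups carry the JAK2V617F mutation, which keeps the kinase JAK2 active. Medium for both lines held 10% fetal calf serum, and that of UKE1 also held 10% horse serum and 10 µM hydrocortisone. Each line is a single line, so what is particular to a line and to its medium cannot be told apart. The series calls the samples independent triplicates without saying how the cultures were kept apart, so p-values cover no more than the spread among these arrays.

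An E2F protein binds DNA as a pair with a DP protein, and the pocket proteins RB1, RBL1 and RBL2 hold that pair silent until cyclin-dependent kinases phosphorylate them. E2F1, E2F2 and E2F3 are mainly activators, E2F4 and E2F5 act mainly as repressors with pocket proteins, and E2F6 represses without them, in a Polycomb complex. E2F7 and E2F8 are atypical: they bind DNA without a DP partner and repress the genes that the activators turned on, in a feedback loop. Several E2F genes are themselves E2F targets, and promoter stretches that hold the E2F consensus are shown for that reason.

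The stretches below are the 140 bases before the RefSeq start on the gene's own strand (GRCh38.p14), shown for the 5 members with a match there. Capitals mark matches, on either strand, to the E2F consensus in its 4 spellings TTTCCCGC, TTTCGCGC, TTTGCCGC and TTTGGCGC, or to the same words without the first T. The shorter words lie inside the longer ones.
E2F1, chr20:33686386-33686525, minus strand: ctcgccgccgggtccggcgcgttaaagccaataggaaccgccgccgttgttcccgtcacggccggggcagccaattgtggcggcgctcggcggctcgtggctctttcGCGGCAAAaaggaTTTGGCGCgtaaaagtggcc
E2F2, chr1:23531234-23531373, minus strand: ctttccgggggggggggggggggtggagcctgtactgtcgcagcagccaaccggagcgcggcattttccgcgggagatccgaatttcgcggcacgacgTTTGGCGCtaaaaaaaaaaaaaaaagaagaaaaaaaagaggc
E2F3, first of its 2 starts, chr6:20401739-20401878, plus strand: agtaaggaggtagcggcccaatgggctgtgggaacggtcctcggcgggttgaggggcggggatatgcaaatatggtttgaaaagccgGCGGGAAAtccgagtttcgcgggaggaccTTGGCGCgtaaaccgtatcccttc
E2F7, chr12:77065570-77065709, minus strand: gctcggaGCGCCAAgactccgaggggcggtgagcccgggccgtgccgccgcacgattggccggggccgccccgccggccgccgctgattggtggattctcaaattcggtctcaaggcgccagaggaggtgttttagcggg
TFDP1, chr13:113584613-113584752, plus strand: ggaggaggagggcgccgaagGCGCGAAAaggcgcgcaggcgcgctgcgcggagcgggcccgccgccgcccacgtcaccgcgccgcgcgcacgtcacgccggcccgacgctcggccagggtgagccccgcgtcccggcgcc

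Over the full windows of 300 bases (250 before the start and 50 after it), 8 of the 10 members had at least 1 window in the RefSeq table. E2F5 and E2F8 had none, so their promoters were not searched. The 8-letter consensus was found for E2F1, E2F2, E2F3 and TFDP1. The 7-letter word was also found for E2F7 and, after the start, for E2F6. Of all 35116 windows of this length, 3.31% held the 8-letter consensus and 13% the 7-letter word, 1164 and 4553 windows. Counted per gene, as the members are, the shares were 3.99% and 15.3% of 27305 genes with a window. Neither word was found in the windows of E2F4 or TFDP2. A match describes the letters and is not a binding site, and no binding was measured.

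The label of the cells was checked on markers. Of 12 erythroid and megakaryocytic markers 9 were measured, and their mean log2 levels ran from 7.61 to 12.5 in treated HEL, 7.83 to 12.2 in untreated HEL, 6.10 to 11.4 in treated UKE1 and 5.96 to 11.5 in untreated UKE1. GATA1, the master regulator of red cell genes, stood at 6.86 in treated and 7.46 in untreated UKE1, against 9.78 in treated and 10.28 in untreated HEL, and ALAS2, the erythroid heme synthesis enzyme, at 6.10 and 5.96 in UKE1, against 9.55 and 9.48 in HEL. The table gives no detection call, so no marker could be scored as absent. The summed level of these 9 markers was 71.5 to 72.4 on treated and 74.2 to 75.2 on untreated UKE1 arrays, against 85.2 to 86.4 on treated and 88.1 to 88.9 on untreated HEL arrays. The 6 granule and monocyte markers summed to 41.1 to 41.9 in treated and 41.7 to 42.9 in untreated UKE1, and to 41.2 to 41.8 in treated and 41.9 to 42.3 in untreated HEL. Of 6 lymphocyte markers 5 were measured. They summed to 33.3 to 33.4 in treated and 34.6 to 35.1 in untreated UKE1, against 24.3 to 25 in treated and 25.5 to 25.8 in untreated HEL. CD3D, a CD3 subunit gene of the T cell receptor complex, stood at 8.75 in treated and 9.15 in untreated UKE1. In HEL it stood at 4.24 in treated and 4.30 in untreated cells. Another marker of the 5, CD2, went the other way. It stood at 5.52 in treated and 5.74 in untreated UKE1, against 6.26 in treated and 6.55 in untreated HEL. The 7 epithelial and fibroblast markers summed to 45.7 to 45.8 in treated and 45.4 to 46.1 in untreated UKE1, against 41.9 to 42.7 in treated and 42.3 to 42.8 in untreated HEL. The part of these marker differences in the E2F results was not tested. Arrays of a group correlated at 0.996 to 0.998 over the genes tested, treated with untreated arrays of 1 line at 0.975 to 0.98, and HEL with UKE1 arrays at 0.882 to 0.902.

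With ITF2357 most members were lower in both lines. In HEL 7 of the 10 members fell and 1, TFDP2, rose; 19.9% of all genes fell and 22.6% rose in this comparison. In UKE1 6 members fell and 0 rose, against 22.3% and 22% of all genes; at an unadjusted limma p below 0.05, 7 were lower and 0 higher. A gene rose or fell where limma's adjusted p was below 0.05 over the 18417 genes. The 6 members that fell in UKE1 (E2F2, E2F3, E2F6, E2F7, E2F8 and TFDP1) all fell in HEL as well, whereas 12.9% of all genes fell in both lines; 14% rose in both, and 0 members did (limma; 0 also at an unadjusted p below 0.05). The median log2 change of the members was -0.28 in HEL and -0.39 in UKE1, and that of all genes was -0.01 and 0.01. In HEL the widest fall, that of E2F3, was 1.40-fold, and 5.84% of all genes fell at least 1.5-fold. In UKE1 4 members fell at least 1.5-fold (E2F3, E2F7, E2F8 and TFDP1), as did 7.87% of all genes. In bulk RNA, fewer cells of a kind and less RNA per cell cannot be told apart.

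**Figure D1:**
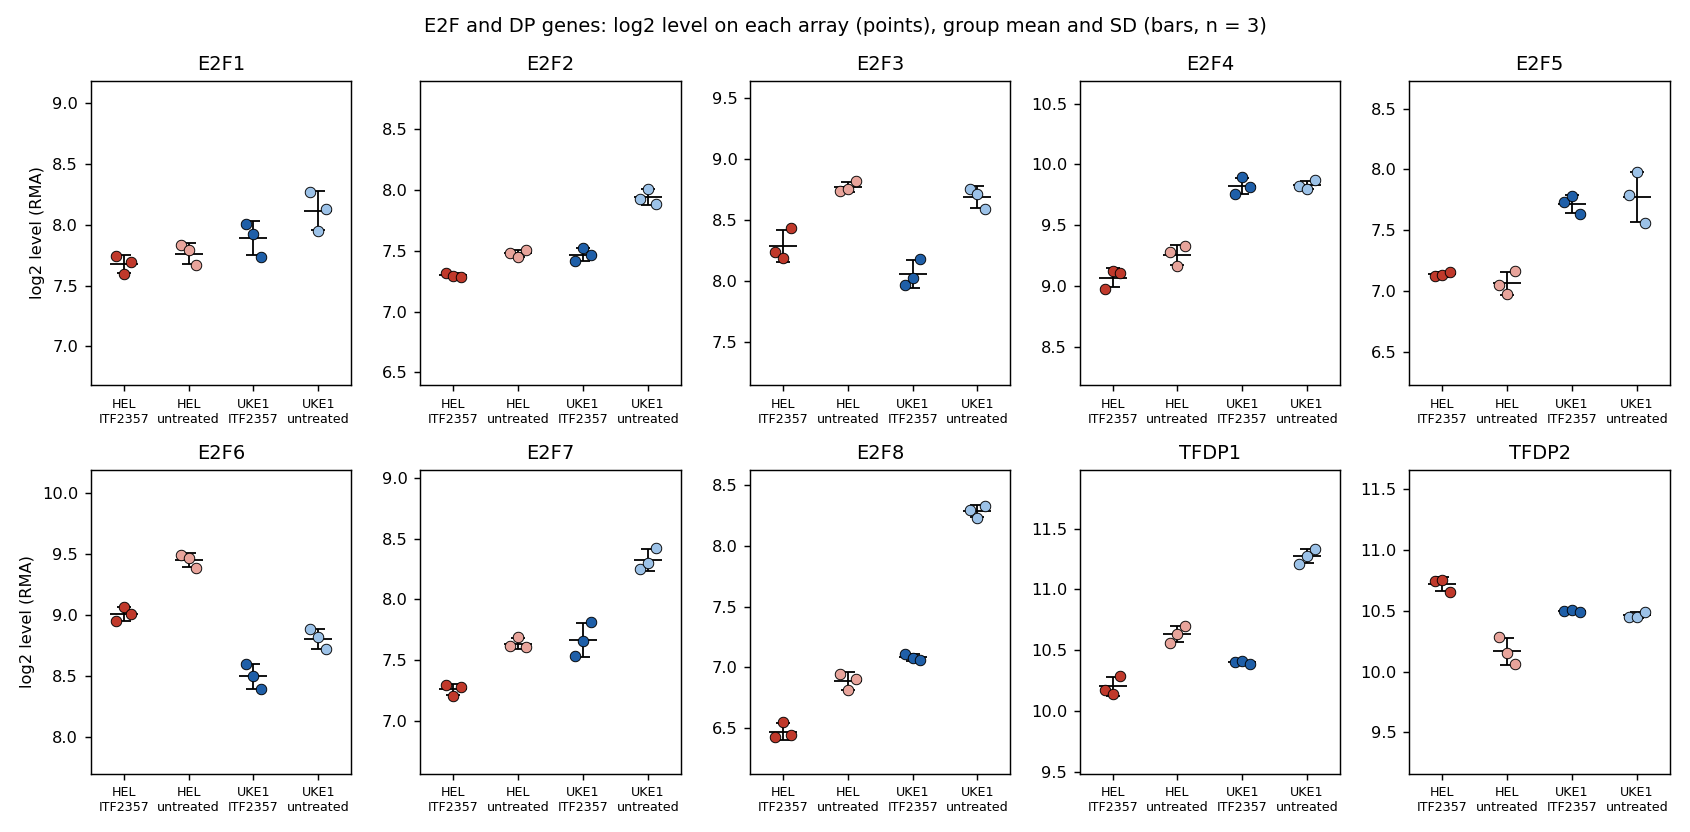
Log2 level (vertical axis, RMA) of each member on each array (points), with the group mean and SD (n = 3), in ITF2357-treated HEL, untreated HEL, ITF2357-treated UKE1 and untreated UKE1 cells. Every panel spans the same number of log2 units. E2F8 stands at 8.23 to 8.33 in untreated UKE1, above its other groups, and TFDP2 is the only member whose treated HEL arrays all lie above the untreated HEL arrays.

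Among the activators, E2F3 fell in both lines, E2F2 fell most clearly in UKE1, and E2F1 was not called in either. E2F3 had log2 levels of 8.23, 8.19 and 8.43 in treated HEL cells, against 8.74, 8.75 and 8.82 in untreated HEL cells. In UKE1 it had 7.96, 8.03 and 8.18 with the drug, against 8.76, 8.72 and 8.59 without it. All treated arrays of E2F3 lay below all untreated arrays of the same line. The log2 change of E2F3 was -0.49 ± 0.08 (SE) in HEL (adjusted p = 0.000179) and -0.63 ± 0.08 in UKE1 (adjusted p = 1.61e-05), and the responses differed by -0.14 ± 0.11 (adjusted p = 0.406). The probes are summarised per gene, so transcripts from the 2 starts of E2F3 are not separated.

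E2F2 had log2 levels of 7.42, 7.52 and 7.46 in treated UKE1 cells, against 7.93, 8.01 and 7.89 in untreated UKE1 cells. In HEL the treated arrays had 7.32, 7.30 and 7.28, and the untreated arrays 7.48, 7.45 and 7.50. The groups did not overlap in either line, but the gap in HEL was 0.13 log2 units. The log2 change of E2F2 was -0.47 ± 0.057 in UKE1 (adjusted p = 1.01e-05) and -0.18 ± 0.057 in HEL (adjusted p = 0.02). The HEL call was lost without untreated replicate 3 (adjusted p = 0.055), without treated replicate 3 (adjusted p = 0.0506) and in a fit of the HEL arrays alone (adjusted p = 0.0528).

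E2F1, the founding member of the family, had log2 levels of 7.74, 7.60 and 7.70 in treated HEL cells, against 7.84, 7.79 and 7.67 in untreated HEL cells. In UKE1 it had 8.01, 7.93 and 7.73 with the drug, against 8.27, 7.95 and 8.13 without it. The groups overlapped in both lines. The log2 change of E2F1 was -0.08 in HEL (95% interval -0.28 to 0.11, adjusted p = 0.514) and -0.23 in UKE1 (95% interval -0.42 to -0.03, adjusted p = 0.0586). The UKE1 value passed the threshold without untreated replicate 2 (-0.31, adjusted p = 0.0155), without treated replicate 1 (-0.29, adjusted p = 0.0369) and under 4 of the other alternatives (adjusted p = 0.0306 to 0.0388).

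Of E2F4 and E2F5, the partners of the pocket proteins in resting cells, E2F4 fell slightly in HEL and E2F5 was not called in either line. E2F4 had log2 levels of 8.98, 9.12 and 9.11 in treated HEL cells, against 9.28, 9.16 and 9.33 in untreated HEL cells, a log2 change of -0.19 ± 0.067 (adjusted p = 0.0365). The groups were 0.04 log2 units apart, and the call was lost on leaving out any of 3 HEL arrays: untreated replicate 1 (adjusted p = 0.0861), untreated replicate 3 (adjusted p = 0.126) or treated replicate 1 (adjusted p = 0.153). It was also lost when all rows were tested (adjusted p = 0.0564) and when the HEL arrays were fitted alone (adjusted p = 0.0856). In UKE1 the 3 treated arrays of E2F4 (9.76, 9.89 and 9.81) overlapped the untreated ones (9.83, 9.80 and 9.87), with a log2 change of -0.01 (95% interval -0.15 to 0.13, adjusted p = 0.926). E2F5 had 7.12, 7.13 and 7.16 in treated HEL cells, against 7.05, 6.98 and 7.16 in untreated HEL cells. It had 7.73, 7.78 and 7.63 in treated UKE1 cells, against 7.79, 7.98 and 7.56 in untreated UKE1 cells. The groups of E2F5 overlapped in both lines, with log2 changes of 0.07 (95% interval -0.12 to 0.27, adjusted p = 0.578) in HEL and -0.06 (95% interval -0.26 to 0.14, adjusted p = 0.654) in UKE1.

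E2F6, the member that represses without pocket proteins, fell in both lines. It had log2 levels of 8.95, 9.06 and 9.01 in treated HEL cells, against 9.49, 9.47 and 9.38 in untreated HEL cells. In UKE1 it had 8.60, 8.50 and 8.39 with the drug, against 8.88, 8.82 and 8.72 without it. No treated array reached an untreated one of its line. The log2 change of E2F6 was -0.44 ± 0.07 in HEL (adjusted p = 0.000134) and -0.31 ± 0.07 in UKE1 (adjusted p = 0.00231), and the difference of 0.13 had a 95% interval from -0.08 to 0.35 (adjusted p = 0.381).

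The atypical repressors E2F7 and E2F8 fell in both lines, and E2F8 fell further in UKE1 than any other member. E2F8 had log2 levels of 7.11, 7.08 and 7.06 in treated UKE1 cells, against 8.30, 8.23 and 8.33 in untreated UKE1 cells. In HEL it had 6.42, 6.55 and 6.44 with the drug, against 6.95, 6.81 and 6.90 without it. The 2 groups of UKE1 were 1.12 log2 units apart, and those of HEL 0.26. E2F8 was 2.30-fold lower with the drug in UKE1 (-1.20 ± 0.062, adjusted p = 4.5e-09) and 1.33-fold lower in HEL (-0.42 ± 0.062, adjusted p = 7.42e-05), and these responses differed by -0.79 ± 0.087 (adjusted p = 2.67e-05). In HEL E2F8 averaged 6.47 with the drug and 6.89 without it. In the same HEL groups the fibroblast marker COL1A1 averaged 6.98 and 6.84, and the granule marker ELANE 7.19 and 7.20. Another fibroblast marker, DCN, went lower, at 3.08 and 2.95. With no detection call, E2F8 could not be scored as present in HEL. Whether a floor of the signal limited its fall there, and with it the difference, was not tested.

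E2F7 had log2 levels of 7.53, 7.65 and 7.82 in treated UKE1 cells, against 8.25, 8.30 and 8.43 in untreated UKE1 cells. In HEL it had 7.29, 7.21 and 7.28 with the drug, against 7.61, 7.69 and 7.61 without it. Treated and untreated arrays did not overlap in either line. E2F7 was 1.58-fold lower with the drug in UKE1 (-0.66 ± 0.076, adjusted p = 6.86e-06) and 1.30-fold lower in HEL (-0.37 ± 0.076, adjusted p = 0.00103). The difference between these responses, -0.28 with a 95% interval from -0.51 to -0.05, missed the threshold (adjusted p = 0.0757), and passed it without treated UKE1 replicate 3 (-0.36, adjusted p = 0.0247) or when the genes with the lowest means were dropped (adjusted p = 0.0488).

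The DP partners went different ways. TFDP1, which codes for the main DP protein, had log2 levels of 10.40, 10.41 and 10.39 in treated UKE1 cells, against 11.21, 11.28 and 11.33 in untreated UKE1 cells. In HEL it had 10.18, 10.14 and 10.29 with the drug, against 10.56, 10.64 and 10.70 without it. TFDP1 was 1.83-fold lower with the drug in UKE1 (-0.87 ± 0.063, adjusted p = 8.15e-08) and 1.35-fold lower in HEL (-0.43 ± 0.063, adjusted p = 6.34e-05), with a difference of -0.44 ± 0.089 (adjusted p = 0.0025).

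TFDP2, the second DP gene, had log2 levels of 10.75, 10.75 and 10.65 in treated HEL cells, against 10.28, 10.15 and 10.07 in untreated HEL cells. It had 10.50, 10.51 and 10.49 in treated UKE1 cells, against 10.45, 10.45 and 10.49 in untreated UKE1 cells. The HEL groups stood 0.37 log2 units apart, and the UKE1 groups overlapped. TFDP2 was 1.47-fold higher with the drug in HEL (0.55 ± 0.064, adjusted p = 6.96e-06), its log2 change in UKE1 was 0.04 (95% interval -0.10 to 0.17, adjusted p = 0.699), and the difference was -0.52 ± 0.09 (adjusted p = 0.00093). No other member passed the test as higher with the drug in either line.

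**Figure D2:**
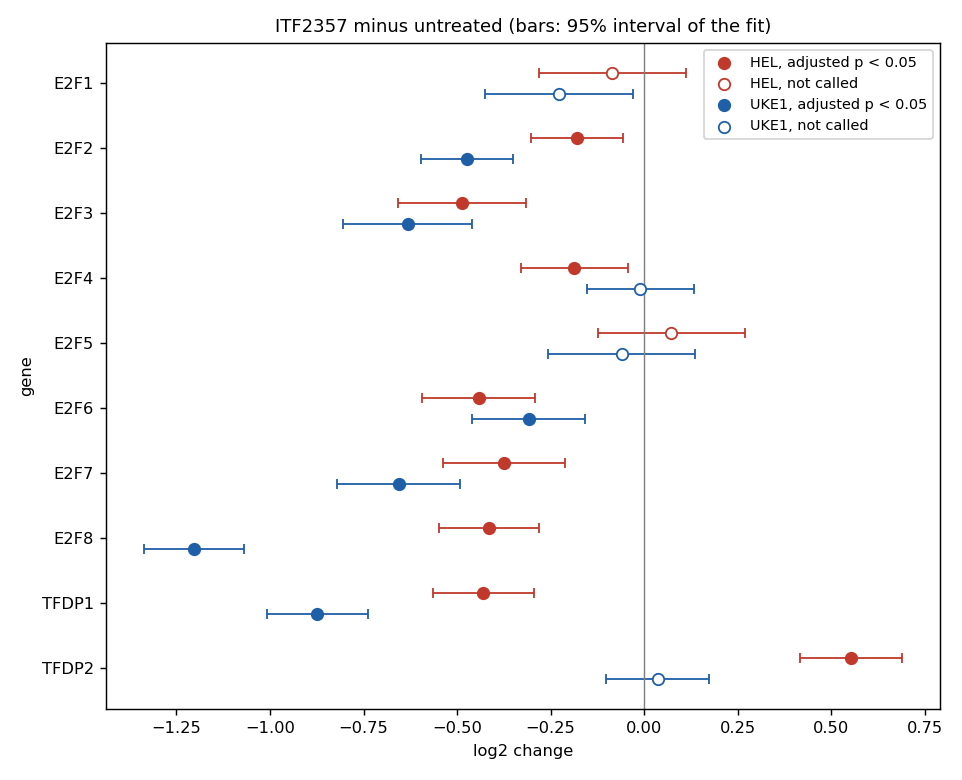
Log2 change with ITF2357 (horizontal axis, treated minus untreated) of the 10 members (vertical axis) in HEL and UKE1, with 95% intervals of the fit; filled points passed adjusted p below 0.05. E2F8 and TFDP1 lie farthest to the left in UKE1, at -1.20 and -0.87, and TFDP2 in HEL lies to the right of 0 at 0.55.

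The responses of the lines differed for 4 members, E2F2 (-0.29 ± 0.081, adjusted p = 0.0176), E2F8, TFDP1 and TFDP2. All 4 differences were negative, that is, the change in UKE1 was the lower one; 13.8% of all genes had such a difference and 10.1% a positive one (limma; 0 members were positive at an unadjusted p below 0.05, and 5 negative). The call of E2F2 was lost after quantile normalization (-0.19, adjusted p = 0.0874), and the other 3 kept their sign and their call under each alternative and on leaving out any of the 12 arrays.

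Most members differed between the lines in untreated cells. In untreated cells 8 of 10 members were higher in UKE1 than in HEL and 1, E2F6, was lower (-0.64 ± 0.07, adjusted p = 1.67e-06); 33.3% of all genes were higher and 34.4% lower. E2F8 was 2.63-fold higher in untreated UKE1 than in untreated HEL cells (1.40 ± 0.062, adjusted p = 9.07e-11). The limit given above for the HEL level of E2F8 applies to this gap and to the one between the treated lines. E2F5 (0.71), E2F7 (0.69), TFDP1 (0.64), E2F4 (0.58), E2F2 (0.46), E2F1 (0.35) and TFDP2 (0.30, all log2) were higher too, with adjusted p-values from 5.28e-07 to 0.00358. E2F3 was the member not called between the untreated lines (-0.09, 95% interval -0.26 to 0.09, adjusted p = 0.362).

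In treated cells 6 members were higher in UKE1 than in HEL and 3 were lower, against 34% of all genes in each direction. E2F8 was 1.53-fold higher in treated UKE1 than in treated HEL cells (0.61 ± 0.062, adjusted p = 8.34e-07). E2F4, which fell only slightly in HEL, had the widest gap of all members under the drug, 1.68-fold (0.75 ± 0.067, adjusted p = 1.96e-07). The gap was 0.20 for TFDP1 and 0.17 for E2F2, and the call of TFDP1 was lost without treated HEL replicate 2 (adjusted p = 0.0503) and that of E2F2 without treated UKE1 replicate 2 (adjusted p = 0.0756). E2F1 (0.21, adjusted p = 0.0556) was not called, though it was in 9 of the alternative fits.

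TFDP2 was lower in treated UKE1 than in treated HEL cells, by -0.22 ± 0.064 (adjusted p = 0.00748), whereas it was higher in UKE1 without the drug. After quantile normalization the call of TFDP2 between the treated lines was lost (adjusted p = 0.946, difference -0.0048), and after centring on array medians the difference was -0.15 (adjusted p = 0.0559). E2F3 was also lower in treated UKE1 (-0.23 ± 0.08, adjusted p = 0.0206), and lost its call under both scalings (adjusted p = 0.12 and 0.0727) and without treated HEL replicate 3 or treated UKE1 replicates 1 or 2 (adjusted p = 0.0605 to 0.101). E2F6 (-0.51 ± 0.07, adjusted p = 1.81e-05) was lower in treated UKE1 than in treated HEL under each alternative. The comparison of the treated lines uses the same treated arrays as the drug comparisons, and that of the untreated lines the same untreated arrays.

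**Figure D3:**
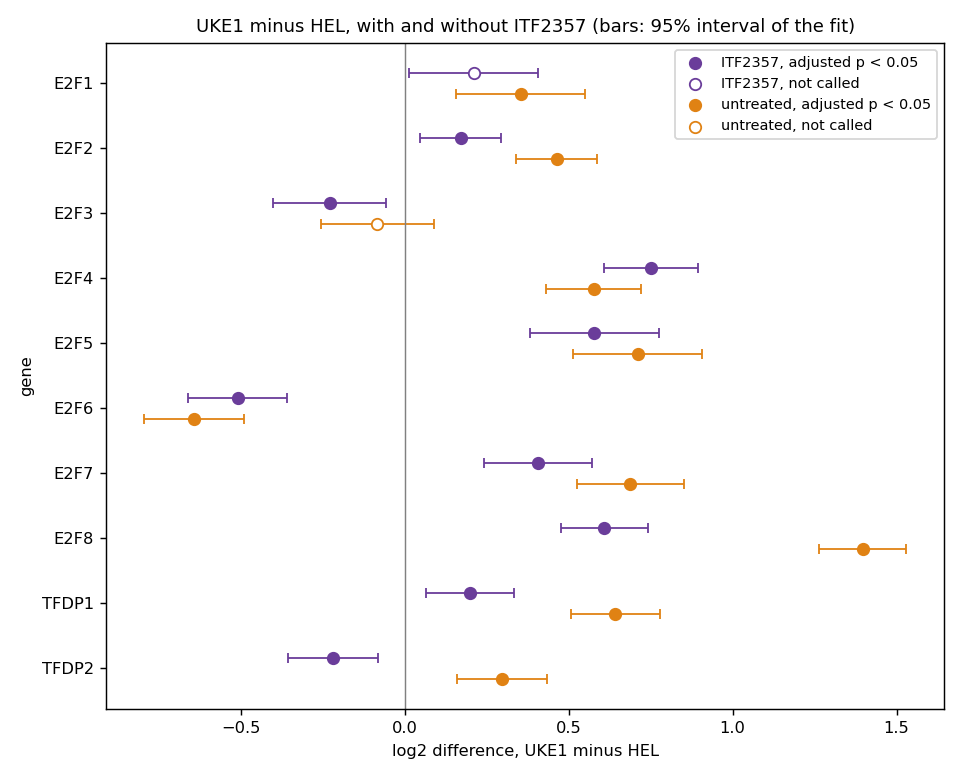
Log2 difference between the lines (horizontal axis, UKE1 minus HEL) of the 10 members (vertical axis) with ITF2357 and without it, with 95% intervals of the fit; filled points passed adjusted p below 0.05. E2F8 stands at 0.61 with the drug and 1.40 without, and TFDP2 at -0.22 with it and 0.30 without.

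Over the 4 groups, untreated UKE1 had the highest mean for 7 of the 10 members and treated HEL the lowest for 6. The order and overlap of the 4 groups were not counted over all genes, so these counts only describe the members. E2F8 ran from untreated UKE1 through treated UKE1 and untreated HEL down to treated HEL with no overlap between neighbouring groups, and E2F6 and TFDP1 also had 4 groups apart. For E2F1 in the same order each pair of neighbours overlapped. Treated UKE1 arrays overlapped untreated HEL arrays for E2F2 and E2F7, and treated overlapped untreated UKE1 arrays for E2F4, E2F5 and TFDP2. For E2F3 the 2 untreated groups overlapped, and for E2F5 the 2 HEL groups. The SD of a member within a group lay between 0.011 and 0.21.

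The 3 members with the largest average drug change were compared with all other genes by the root mean square difference of log2 levels over the 12 arrays, each gene's mean removed. Nearest to E2F8 were PPM1F, a protein phosphatase (0.108), DIS3L, an exosome nuclease (0.119), and CD300A, an inhibitory receptor of blood cells (0.125). Nearest to TFDP1 were KDM3B, a histone demethylase (0.0568), NLRX1 (0.0645) and ITPKB, an inositol phosphate kinase (0.0663). Nearest to E2F3 were SYMPK, a scaffold of polyadenylation (0.0459), MBD6 (0.0587) and RBM19, a ribosome assembly factor (0.0777). These distances describe the same 12 arrays, which share cell line and treatment, and were not tested.

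Around the E2F proteins stand the pocket proteins and the MuvB core, which forms the DREAM repressor complex with RBL1 or RBL2, E2F4 or E2F5 and a DP protein. Of all genes tested, 22.6% rose and 19.9% fell in HEL and 22% rose and 22.3% fell in UKE1, with median log2 changes of -0.01 and 0.01, and the counts of each gene list that follows stand beside these shares. Of 9 pocket protein and MuvB genes measured, 3 rose and 2 fell in HEL (median 0.05), and 3 rose and 4 fell in UKE1 (median -0.16), so the count that fell in HEL was near the share of all genes. RB1 rose in both lines (0.45 ± 0.064 in HEL, adjusted p = 4.48e-05, and 0.43 in UKE1), and the pocket protein gene RBL1 fell in both (-0.28 and -0.64 ± 0.068, adjusted p = 2.74e-06 in UKE1). The MuvB subunits split: LIN9 fell (-0.85 in HEL and -1.11 in UKE1), while LIN37 rose (0.88 and 1.15), as did LIN54 (0.45 and 0.37). MYBL2, which binds MuvB later in the cycle, fell in UKE1 by 0.56 and had a log2 change of 0.08 in HEL, not called, with a difference of -0.64 ± 0.086 (adjusted p = 0.000128). RBL2, the third pocket protein gene, likewise had a lower change in UKE1 (-0.42 ± 0.097, adjusted p = 0.00632).

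Among the cyclins and kinases that phosphorylate pocket proteins, 2 of 10 rose and 5 fell in HEL (median -0.12; 22.6% and 19.9% of all genes), and 3 rose and 7 fell in UKE1 (median -0.57; 22% and 22.3%). The D-type cyclins CCND1 and CCND2 fell in UKE1 (-0.85 and -0.83), and were not called in HEL (0.14 and 0.07), with differences of -0.99 ± 0.093 and -0.89 ± 0.092 (adjusted p = 6.57e-06 and 1.45e-05). CCND1 had log2 levels of 7.59, 7.65 and 7.55 in treated UKE1 cells, against 8.47, 8.40 and 8.47 in untreated UKE1 cells. CCND3 (-0.70 in HEL and -0.44 in UKE1) and its kinase CDK4 (-0.57 and -0.42) fell in both lines, and CDC25A, the phosphatase that activates these kinases, fell in both lines (-0.52 in HEL and -0.92 in UKE1). CCNA2 fell 1.99-fold in UKE1 (adjusted p = 5.9e-08) and 1.24-fold in HEL, and CDK2, the kinase of cyclins E and A, rose in HEL by 0.96 and in UKE1 by 0.33, a difference of -0.63 ± 0.083 (adjusted p = 0.000111). The difference was negative for 6 of the 10 (13.8% of all genes) and positive for 0 (10.1% of all genes; limma; 3 at an unadjusted p below 0.05), and 1 to 3 were called positive under 5 of the alternatives.

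Of 6 measured CDK inhibitor genes, 2 rose and 0 fell in HEL (median 0.06; 22.6% and 19.9% of all genes; limma, 0 also at an unadjusted p below 0.05). In UKE1 2 rose and 1 fell (median 0.05; 22% and 22.3% of all genes). CDKN1A (p21) rose 2.01-fold in HEL (adjusted p = 3.01e-08) and 1.36-fold in UKE1 (adjusted p = 4.77e-05), a difference of -0.56 ± 0.089 (adjusted p = 0.000455). CDKN1B (p27) had a log2 change of 0.24 in HEL (adjusted p = 0.0406), a call that was lost under 4 alternatives and without any of 5 arrays (adjusted p = 0.0503 to 0.19), and fell in UKE1 by 0.41 (adjusted p = 0.00156). CDKN1C (p57) rose in UKE1 (0.26, adjusted p = 0.0089).

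Ubiquitin ligase factors that act on E2F proteins or on their inhibitors went both ways: 3 of 8 rose and 3 fell in HEL (median 0.01; 22.6% and 19.9% of all genes), and 1 rose and 2 fell in UKE1 (median -0.05; 22% and 22.3%), where the count that fell was near the share of all genes. CUL1, the scaffold of the SCF ligases, fell by 0.64 in HEL and by 1.46 ± 0.072 in UKE1 (2.75-fold, adjusted p = 3.48e-09). SKP2, which recognises p27 and E2F1, rose in HEL (0.40, adjusted p = 5.22e-05) and was not called in UKE1 (-0.09), a difference of -0.49 ± 0.081 (adjusted p = 0.000622). FBXO5, an inhibitor of the anaphase-promoting complex, fell by -0.37 in both lines, and SKP1 rose (0.27 and 0.31).

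E2F6 works in the PRC1.6 complex, which pairs it with the MGA and MAX proteins. Of 13 measured genes of that complex, 4 rose and 6 fell in HEL (median -0.13; 22.6% and 19.9% of all genes), and 2 rose and 6 fell in UKE1 (median -0.18; 22% and 22.3%). L3MBTL2 (-0.72 in HEL and -0.64 in UKE1), the scaffold MGA (-0.68 and -0.62) and WDR5 (-0.47 and -0.32) fell together with E2F6, while RYBP, which bridges the RING ligase to DNA-bound factors, rose (0.75 and 0.90). The histone methyltransferase gene EHMT2 rose in HEL (0.59) and was not called in UKE1 (-0.02), a difference of -0.62 ± 0.095 (adjusted p = 0.000361).

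Germline genes that E2F6 or its complex is known in mouse to keep silent were also counted. Of 9 measured, 1 rose and 2 fell in HEL (median -0.04; 22.6% and 19.9% of all genes), the count that fell being near the share of all genes. In UKE1 1 rose and 0 fell (median -0.04; 22% and 22.3% of all genes; limma, 0 also at an unadjusted p below 0.05). TDRKH, a factor of piRNA processing, rose in both lines. It averaged 8.99 on the log2 scale in treated UKE1 cells, against 7.81 in untreated UKE1 cells, a 2.27-fold rise (adjusted p = 3.1e-09), and it rose by 0.68 on the log2 scale in HEL (adjusted p = 4.4e-07), a difference of 0.50 ± 0.082 (adjusted p = 0.000573). The HEL calls of SYCP1 (-0.29, adjusted p = 0.0423) and DDX4 (-0.21, adjusted p = 0.0469) were lost under several alternatives and on leaving out single arrays (adjusted p up to 0.163 and 0.126).

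Genes listed as E2F targets were counted next. E2F protein, binding and activity were not measured, and the part of E2F in the changes of these genes was not tested. Of 57 measured E2F targets of G1/S, the step in which cells commit to DNA replication, 15 rose and 24 fell in HEL and 10 rose and 36 fell in UKE1, against 22.6% of all genes that rose and 19.9% that fell in HEL, and 22% and 22.3% in UKE1. The counts that rose were thus near the share of all genes, and those that fell above it. Their median log2 change was -0.05 in HEL and -0.27 in UKE1. In both lines 23 of the 57 fell, against 12.9% of all genes, and 8 rose, against 14% of all genes, which is the same share. CDC25A, CCNE1, CCNE2, MYBL2 and RBL1, counted in the lists above, are among these targets, and CCNA2 is among the G2/M genes. CDC25A and RBL1 fell in both lines and MYBL2 in UKE1, whereas the cyclin E genes had higher means with the drug. CCNE1 averaged 8.41 in treated and 7.80 in untreated HEL, and 8.62 in treated and 7.66 in untreated UKE1. CCNE2 averaged 9.07 in treated and 8.84 in untreated HEL, and 10.12 in treated and 9.46 in untreated UKE1. In HEL the treated arrays of CCNE2 (9.15, 9.20 and 8.86) overlapped the untreated ones (9.08, 8.84 and 8.60). Of the MCM2 to MCM7 helicase genes, a hand-picked group, 5 of 6 fell in HEL and 6 of 6 in UKE1. The shares of all genes that fell were 19.9% and 22.3%. MCM7 had log2 changes of -0.51 and -0.99. Replication genes of the same list that rose in HEL include RFC1 and PRIM2, described below.

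In HEL the 4 G1/S targets with the smallest adjusted p all rose: APAF1, which triggers caspase activation (2.91-fold), RFC1, a clamp loader subunit (2.02-fold), the histone chaperone ASF1B (1.81-fold, and 1.80-fold in UKE1) and the primase subunit PRIM2 (1.56-fold). In UKE1 the smallest adjusted p was that of a gene that fell. GINS3, a subunit of the replicative helicase, was 3.38-fold lower with the drug (adjusted p = 3.78e-09), with log2 levels of 7.01, 7.08 and 7.01 in treated cells, against 8.79, 8.85 and 8.73 in untreated cells. MCM7 and the glycosylase gene UNG were 1.98-fold and 1.96-fold lower there, while APAF1 rose 2.26-fold. The responses differed for 24 of the 57 targets, all with a lower change in UKE1 (13.8% of all genes), though 5 of the alternatives also called 1 to 4 targets with a higher change. The differences with the smallest adjusted p were those of RFC1 (-0.83), GINS4 (-0.76), GINS3 (-0.93) and MYBL2 (-0.64).

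Of 24 measured G2/M genes, which E2F and DREAM complexes regulate together, 4 rose and 13 fell in HEL (22.6% and 19.9% of all genes) and 4 rose and 16 fell in UKE1 (22% and 22.3%), with medians of -0.25 and -0.41. Cyclin B1 (CCNB1) fell 1.76-fold in HEL, and FOXM1, a transcription factor of mitotic genes, 1.75-fold in HEL and 1.94-fold in UKE1. UBE2C, an enzyme of the anaphase-promoting complex, fell 1.51-fold and 1.58-fold, and the mitotic kinase PLK1 1.56-fold and 2.36-fold. PLK1 (-0.60), CCNA2 (-0.69) and the spindle checkpoint kinase TTK (-0.61) had lower changes in UKE1, and the checkpoint kinase BUB1 a higher one (0.47 ± 0.083, adjusted p = 0.00113).

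**Figure D4:**
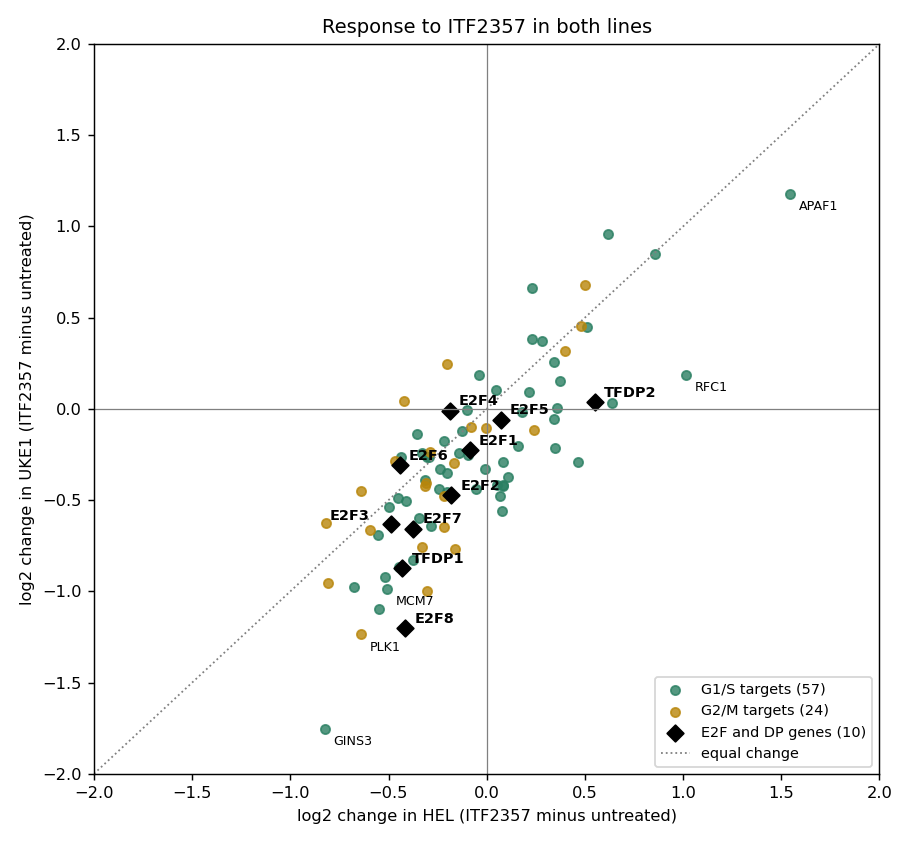
Log2 change with ITF2357 in HEL (horizontal axis) against that in UKE1 (vertical axis) for 57 G1/S targets, 24 G2/M targets and the 10 E2F and DP genes (diamonds); each point is a gene and the dotted line marks equal change. E2F8, TFDP1, GINS3 and PLK1 lie below the line, and TFDP2 lies at 0.55 in HEL and 0.04 in UKE1.

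**Figure D5:**
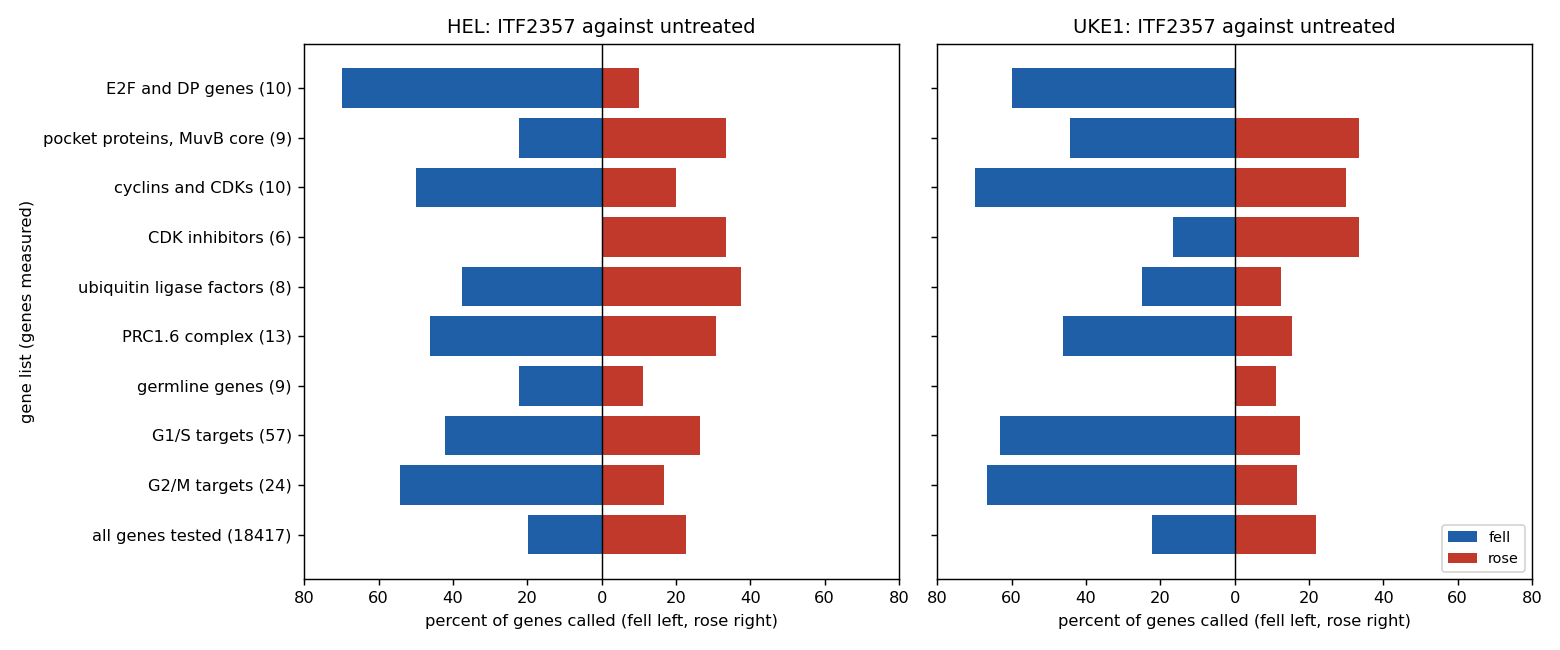
Share of each gene list (horizontal axis, percent of genes measured) that fell (left) or rose (right) with ITF2357 at adjusted p below 0.05, in HEL and UKE1, with all 18417 genes tested in the bottom row. The E2F and DP genes reach 7 of 10 fallen in HEL and 6 of 10 in UKE1, where 19.9% and 22.3% of all genes fell.

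The lines also differed in their targets without the drug. In untreated cells 50 of the 57 G1/S targets were higher in UKE1 than in HEL and 3 were lower, with a median log2 difference of 0.81; 33.3% of all genes were higher and 34.4% lower. In treated cells 45 were higher in UKE1 and 5 lower, with a median of 0.66, against 34% of all genes in each direction. Of the G2/M genes 9 of 24 were higher and 5 lower in untreated UKE1, and 7 were higher and 12 lower in treated UKE1. The G2/M counts that were higher were thus near the shares of all genes, 33.3% without the drug and 34% with it. GINS2, named after its value was seen, had the largest difference of the 57 between the untreated lines, 2.03 on the log2 scale. The promoter windows of G1/S targets held the 8-letter E2F consensus for 27 of 52 genes with a window, against 3.99% of all 27305 genes with one, and those of G2/M genes for 3 of 20. The G1/S genes were listed because they are known as E2F targets. Their share with the consensus therefore describes the list and is no separate result on the drug or the lines.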

How the data were processed

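Gene expression was measured on 12 arrays. The arrays were summarised and normalized by RMA in Affymetrix Expression Console, per the submitters' processing notes; tool versions and the genome build: not given in the sources used here. Values in the deposited table (33297 rows) were read as log2 from their range of 1.26 to 14.36. Array medians of 6.41 to 6.50 show that they had been normalized; the number of arrays limits the precision. GEO's platform annotation gave 1 symbol for 19460 rows, several for 1754 and none for 12083. The highest-mean row was kept for 769 genes with several rows, which left 18417 genes; each member had 1 row.

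Group means were modelled in limma 3.58.1 under R 4.3.3 (eBayes moderation, 8 residual degrees of freedom), two-sided, with Benjamini-Hochberg adjustment over all 18417 genes. Errors are SE of the fit. Replicate numbers were not used to pair the samples, as the labels do not say that they mark a shared culture or day. Deviations of 18 same-numbered pairs correlated at -0.088 to 0.122, 1 of them above 0.1. These values show no strong shared effect, but with 3 arrays per group they cannot settle whether cultures were paired. Alternatives were 8 other settings and leaving out each of 12 arrays.

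The members and gene lists were chosen with earlier results of these data known. All members are described. Of each list, up to 4 genes with the smallest adjusted p are named per drug comparison and for the difference between lines. The cyclin E genes, MCM2 to MCM7 as a group, GINS2 and the single cell type markers were named outside this rule. Promoters are from RefSeq (GRCh38.p14).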

Additional observations from a re-analysis of the deposited data

Results flagged for a closer look

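Responses to ITF2357 that differed between the lines by the test of the difference (UKE1 change minus HEL change, limma adjusted p below 0.05) are collected here. Among the members these were E2F8 (-0.79), TFDP2 (-0.52), TFDP1 (-0.44) and E2F2 (-0.29, all log2), of which E2F8, TFDP1 and E2F2 fell in both lines and further in UKE1, and TFDP2 rose in HEL and was not called in UKE1. For E2F8 a floor of the signal in HEL was not tested, as stated above.

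Among the genes around the family, the cyclins CCND1 (-0.99), CCND2 (-0.89) and CCNA2 (-0.69) and the kinase CDK2 (-0.63) differed, as did the CDK inhibitors CDKN1B (-0.65) and CDKN1A (-0.56) and the ligase factors CUL1 (-0.82) and SKP2 (-0.49). MYBL2 (-0.64), RBL2 (-0.42), RBL1 (-0.36) and EHMT2 (-0.62) also had a lower change in UKE1. The replication genes GINS3 (-0.93), RFC1 (-0.83) and GINS4 (-0.76) and the mitotic kinases TTK (-0.61) and PLK1 (-0.60) did too. TDRKH (0.50) and BUB1 (0.47) had the higher change in UKE1. These genes were named for a small adjusted p, so their shared passing of the threshold is no separate result.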

How the results depend on the processing

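With all rows of the table tested in place of 1 row per gene, 19147 rows were called between the untreated lines and 19169 between the treated lines, against 12471 and 12525 genes, as more rows were tested. The number of members lower in treated UKE1 than in treated HEL was 3 as deposited, 1 after quantile normalization and 1 after centring on array medians. The other counts of genes and of members called stayed within 1.5 times under these alternatives; on leaving out single arrays the members called lower numbered 5 to 7 in HEL, 6 to 7 in UKE1 and 4 to 5 for the difference. Sign changes were seen only for members near 0 in UKE1 that were not called: E2F4 (-0.01) had 0.022 after quantile normalization and -0.046 to 0.021 on leaving out single arrays, and E2F5 (-0.06) -0.17 to 0.042. The cause was not tested.

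With the replicate number as a block, 7769 genes were called in HEL, 8106 in UKE1 and 4274 for the difference, against 7816, 8160 and 4395; 7 members fell in HEL and 7 in UKE1, where E2F1 joined (adjusted p = 0.034). The table has no signal over background, so levels near the low end carry no call of presence.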

Other observations

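The nearest genes to the members changed in part when each profile was first scaled to unit SD. DIS3L stayed among the 3 nearest to E2F8, joined by LHFPL2 and MTR; KDM3B and NLRX1 stayed nearest to TFDP1, joined by ACOT2; and SYMPK and MBD6 stayed nearest to E2F3, joined by SDHAF2. No explanation was sought.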
